A study of Mus musculus with 15 samples.

Results

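Expression of the genes that encode the Polycomb repressive complexes, together with a set of histone demethylases, was followed in mouse embryonic stem (ES) cells as the kinase inhibitors and the cytokine of their medium were taken away. The genes were taken by name from the list of 36, and each was read from the probe set with the highest mean among those that the platform annotation assigns to that symbol alone. Of the 36 listed genes, 35 were measured among 19937 genes in all; Cbx6 was not analysed here. They fall into 11 genes of Polycomb repressive complex 2 (PRC2), 18 of Polycomb repressive complex 1 (PRC1) and its variant forms, and 6 histone demethylases that stand outside those complexes.

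PRC2 methylates lysine 27 of histone H3, a mark of repressed developmental genes, and PRC1 ubiquitinates histone H2A. In ES cells both complexes occupy CpG islands of lineage genes that are silent but can be activated on differentiation. Accessory subunits steer the complexes to their sites, and demethylases remove methyl groups from H3 lysines 4, 9, 27 and 36.

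Total RNA was measured on 15 arrays, 3 in each of 5 groups, all from 1 ES cell line that had been adapted to 2i medium and carries a biotin and 3xFLAG tag on the endogenous Ctnnb1 gene together with the biotin ligase BirA. The 2iLIF group was kept in long-term culture with CHIR99021 (3 µM), which inhibits GSK3, PD0325901 (1 µM), which inhibits MEK, and the cytokine LIF. Cells of the other 4 groups had spent 24 h without LIF, in both inhibitors (2i), in CHIR99021 alone (CHIR), in PD0325901 alone (PD03) or in DMSO with neither (DMSO). Comparisons thus set a factor kept against the same factor withdrawn, and no factor was newly added. The labels give no 24 h withdrawal for 2iLIF. In comparisons with 2iLIF, LIF and the withdrawal step itself therefore cannot be told apart. All groups share the tagged line, so the responses are those of a single line, and the labels do not say whether replicates were separate cultures. Values are log2 signals, differences are on the log2 scale as the first group minus the second, with the standard error (SE), and a gene passed when its limma p-value adjusted over all 19937 genes was under 0.05.

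Levels of the ES cell markers were high throughout: the mean of the 6 markers lay between 11.22 and 11.52 on every array, and Pou5f1 means lay between 12.49 and 12.54. Of the 6, 4 passed in 2iLIF minus DMSO: Nanog at 0.97 ± 0.04, Zfp42 at 0.84 ± 0.06 and Sox2 at 0.12 ± 0.04 were higher, and Dppa4 was lower at -0.59 ± 0.06. The mean of 8 fibroblast and feeder markers lay between 6.38 and 6.60 on every array, and Dcn alone of them passed in 2iLIF minus DMSO, at -0.36 ± 0.07. Of the 6 primitive endoderm markers, Gata4 alone passed there, at 0.26 ± 0.06. Of 5 trophoblast markers 2 passed, Eomes at 1.80 ± 0.10 and Tfap2c at 1.96 ± 0.08, and Elf5, Cdx2 and Krt7 did not pass and lay below the array medians of all probe sets, with 2iLIF means of 5.63, 5.91 and 6.52. The mean of the 5 ranged from 6.48 to 6.64 in DMSO to 7.27 to 7.31 in 2iLIF, and its part in the results that follow was not tested. The 3 mesoderm markers had array means from 6.10 to 6.27. Of 4 neural progenitor markers 1 was higher and 2 lower in 2iLIF minus DMSO, with differences from -1.22 (Pax6) to 0.53 (Tubb3), and their part was not tested. In bulk RNA, fewer cells of a type and less RNA per cell cannot be told apart.

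Cells in full 2iLIF medium held less Phc1, Phf19, Kdm2b and Bcor mRNA than cells in DMSO, by 2.34-fold, 2.14-fold, 1.97-fold and 1.93-fold, and more Kdm3a and Eed, by 1.69-fold and 1.47-fold. The enzymes at the heart of both complexes, Ezh2 and Rnf2, did not pass there (-0.01 ± 0.03 and 0.03 ± 0.04), and most other changes were small. In 2iLIF minus DMSO 9 of the 35 were higher and 14 lower, against 16.7% and 18% of all genes, with a median difference of -0.078 against 0.006 over all genes. In either direction 34.7% of all genes passed in this comparison, as did 53.5% of the genes whose mean level was at least that of the lowest member. This floor was 7.122, whereas the members' median level was 10.185 and that of all genes 7.404. Genes above the floor are called genes at the members' levels below, but levels were not matched. In CHIR minus DMSO 4 were higher and 7 lower, against 10% and 10.8% of all genes, and 20.8% of all genes and 32.4% of those at the members' levels passed. In PD03 minus DMSO 6 were higher and 5 lower, against 8.67% and 8.15% of all genes, and 16.8% and 26.4% passed in the same sense. In 2i minus DMSO 3 were higher and 10 lower, against 13.6% and 11.9% of all genes, and 25.5% and 39.3% passed. The members' shares of 31.4%, 31.4% and 37.1% in these 3 comparisons with DMSO thus lay near those of genes above that floor.

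With PD0325901 present throughout, CHIR99021 kept rather than withdrawn went with more member calls. In 2i minus PD03 5 were higher and 13 lower, against 10.1% and 9.44% of all genes. In all 51.4% of the 35 passed, against 19.5% of all genes and 31.5% of genes above the members' floor. In that comparison all 4 neural progenitor markers measured were lower as well, at -1.12 for Pax6 and between -0.56 and -0.24 for the others, and their part was not tested. With CHIR99021 present throughout, PD0325901 kept rather than withdrawn gave fewer. In 2i minus CHIR none was higher and 5 lower, against 5.7% and 3.76% of all genes, where 9.46% of all genes and 15.4% at those levels passed; the 5 that fell were Phc1, Kdm2b, Bcor, Yaf2 and Rbbp7. In 2iLIF minus 2i 2 were higher and 8 lower, against 4.56% and 7.66% of all genes, where 12.2% and 19.7% passed. With a minimum difference of 0.2 the members past the threshold numbered 14 in 2iLIF minus DMSO, 10 in 2i minus PD03 and 5 in 2iLIF minus 2i, where 24.7%, 12.1% and 8.29% of all genes passed. In the other 4 pairwise comparisons they numbered 8 with CHIR minus DMSO, 8 with PD03 minus DMSO, 9 with 2i minus DMSO and 4 with 2i minus CHIR, where 13.1%, 11%, 17% and 6.39% passed. The comparisons that contain DMSO share its 3 arrays, and likewise those that contain 2i. Across the 7 pairwise comparisons 29 members passed at least once, and Ezh1, Ezh2, Suz12, Rbbp4, Bmi1 and Cbx8 in none. Phc1, Kdm2b and Bcor passed in all 7.

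**Figure D1:**
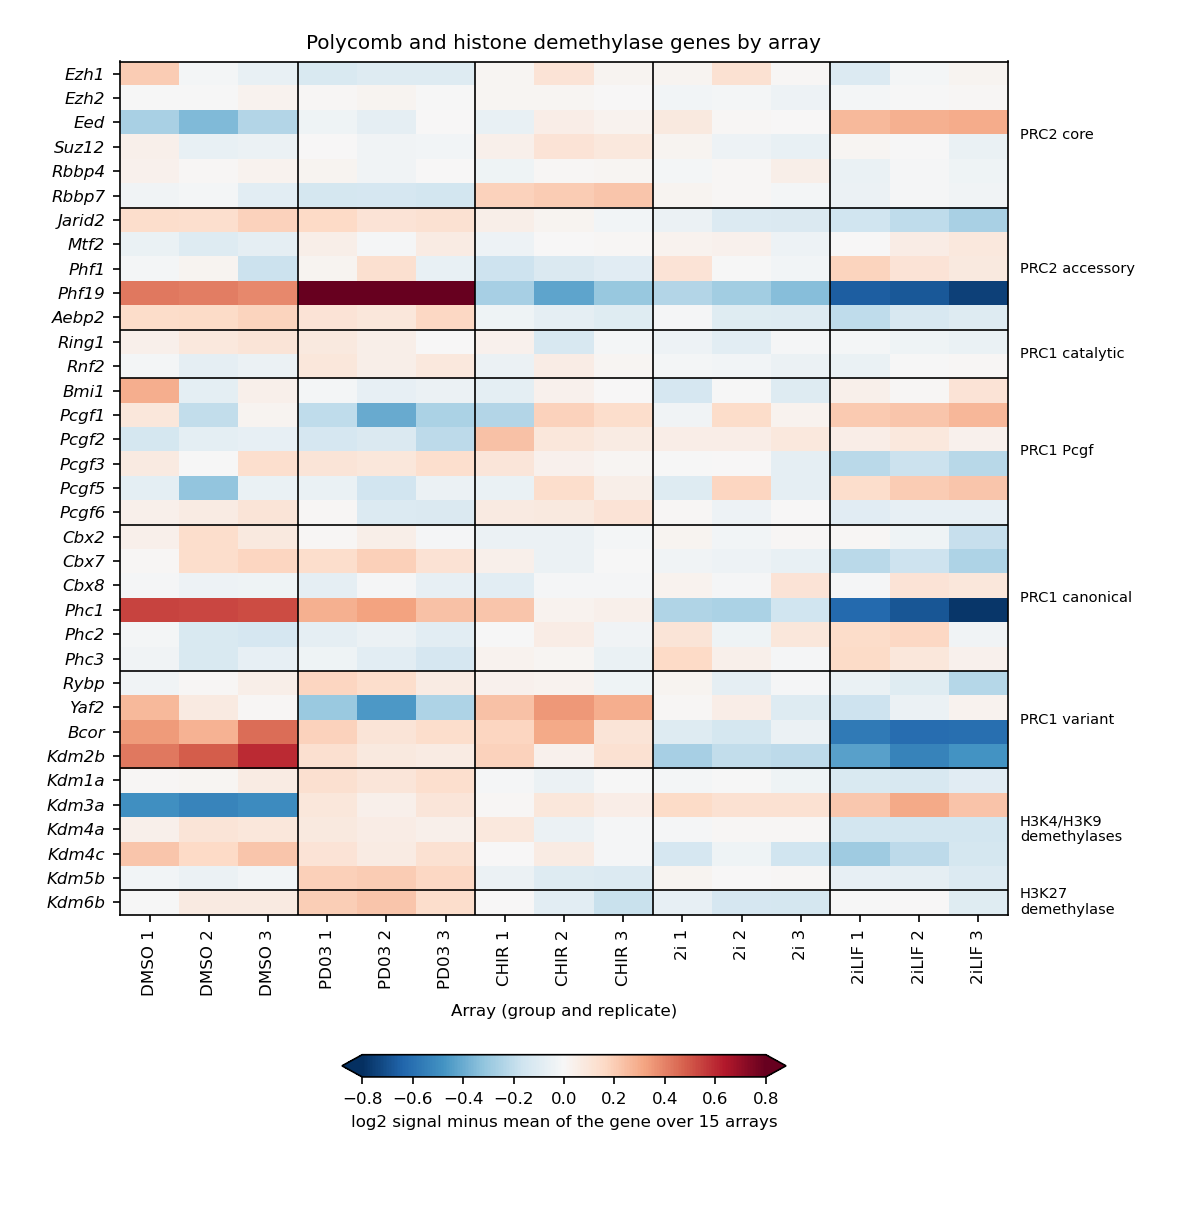
Log2 signal of each of the 35 members (rows, ordered by complex) on each of the 15 arrays (columns), with the mean of the gene over all arrays subtracted; the colour scale ends at the arrows. Phc1, Bcor and Kdm2b run from red in DMSO to blue in 2iLIF, Eed and Kdm3a run the other way, and Phf19 is reddest in PD03.

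The core of PRC2 hardly moved apart from Eed and Rbbp7. Ezh2, the main methyltransferase subunit in ES cells, had group means between 12.13 and 12.16, with a difference of -0.01 ± 0.03 in 2iLIF minus DMSO and a 95% interval of -0.08 to 0.05. Suz12, the scaffold subunit, stood at 0.01 ± 0.04 (interval -0.07 to 0.09), and the histone-binding subunit Rbbp4 at -0.06 ± 0.03 (interval -0.12 to 0.01). Ezh1, the other methyltransferase, was at -0.08 ± 0.06, with a wider interval of -0.21 to 0.05.

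Eed, the subunit that binds trimethylated H3 lysine 27 and stimulates the enzyme, was the exception. It read 10.97, 10.87 and 10.99 in the DMSO arrays, 11.19, 11.15 and 11.23 in PD03, 11.16, 11.28 and 11.25 in CHIR, 11.30, 11.23 and 11.23 in 2i and 11.48, 11.51 and 11.52 in 2iLIF. All 3 DMSO arrays were the lowest and all 3 2iLIF arrays the highest, while the arrays of PD03, CHIR and 2i overlapped. The differences were 0.29 ± 0.04 in CHIR minus DMSO (adjusted p = 0.000124), 0.25 ± 0.04 in PD03 minus DMSO (0.000585) and 0.31 ± 0.04 in 2i minus DMSO (3.61e-05). In 2iLIF minus 2i it was higher by a further 0.25 ± 0.04 (0.000693), so that Eed was 1.47-fold higher in 2iLIF than in DMSO (0.56 ± 0.04, 2.58e-08). The second probe set of Eed had a mean level of 5.39, below the array medians, and a difference of -0.02 in 2iLIF minus DMSO. With the mean of both probe sets, Eed no longer passed in PD03 minus DMSO and 2iLIF minus 2i (adjusted p = 0.147 and 0.241).

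Rbbp7, the paralogue of Rbbp4, was highest in CHIR. Its levels were 11.97, 11.98 and 11.91 in the DMSO arrays, 11.86, 11.87 and 11.85 in PD03, 12.18, 12.20 and 12.22 in CHIR, 12.02, 12.01 and 11.98 in 2i and 11.95, 11.99 and 11.97 in 2iLIF. The 3 CHIR arrays lay above all others and the 3 PD03 arrays below all others. It was higher in CHIR minus DMSO by 0.25 ± 0.03 (adjusted p = 3.75e-05) and lower in 2i minus CHIR at -0.20 ± 0.03 (0.000724), and its other probe set gave 0.23 and -0.23. In 2iLIF minus DMSO it was at 0.02 ± 0.03 (0.778).

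Among the accessory subunits of PRC2, 3 of 5 were lower and 2 higher in 2iLIF minus DMSO. Mtf2, Phf1 and Phf19 are the Polycomb-like proteins of the PRC2.1 form, and Jarid2 and Aebp2 belong to the PRC2.2 form. Jarid2 fell by 0.36 ± 0.04 (adjusted p = 8.89e-07) and Aebp2 by 0.30 ± 0.04 (1.14e-05). Both were also lower in 2i than in PD03, at -0.22 ± 0.04 and -0.19 ± 0.04, whereas in PD03 minus DMSO they stood at -0.02 ± 0.04 and -0.04 ± 0.04 and did not pass. Aebp2 was lower in CHIR minus DMSO at -0.23 ± 0.04 (0.000485). Phf1 was higher in 2iLIF minus DMSO at 0.18 ± 0.06 (0.023), a call lost with a fit on the 2 compared groups alone (adjusted p = 0.0518) and on omission of any 1 of 2iLIF replicate 1 and DMSO replicate 3 (adjusted p = 0.0873 to 0.128). Mtf2 was higher there at 0.12 ± 0.04 (0.0139), a call lost with a fit on the 2 compared groups alone (adjusted p = 0.0579) and on omission of any 1 of 2iLIF replicate 3 and DMSO replicate 2 (adjusted p = 0.0546 to 0.0595).

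Phf19 differed most of the accessory subunits, and its differences from DMSO had opposite signs with either inhibitor alone kept. It read 8.23, 8.21 and 8.19 in the DMSO arrays, 8.82, 8.63 and 8.66 in PD03, 7.54, 7.38 and 7.50 in CHIR, 7.56, 7.52 and 7.46 in 2i and 7.14, 7.12 and 7.06 in 2iLIF. The PD03 arrays were above all others and the 2iLIF arrays below all others, and those of CHIR and 2i overlapped. Against DMSO, Phf19 was higher with PD0325901 alone kept, by 0.50 ± 0.05 (1.41-fold, adjusted p = 4.63e-06). With CHIR99021 alone kept it was lower than in DMSO, at -0.74 ± 0.05 (5.71e-08). In the presence of CHIR99021 the MEK inhibitor left a difference of 0.04 ± 0.05 (0.675, interval -0.07 to 0.16), and 2i minus PD03 was -1.19 ± 0.05 or 2.28-fold lower, the largest difference of any member in that comparison (4.18e-10). The interaction of the inhibitors, which is the effect of CHIR99021 with PD0325901 minus its effect without, was -0.45 ± 0.07 (0.00317). Phf19 and Kdm3a were the 2 members with an interaction past the threshold, both of them negative and both beyond 0.2, where 2.04% of all genes passed (0.933% positive, 1.1% negative and 2.02% beyond 0.2) and 3.18% of genes at the members' levels. In 2iLIF the level was lower still, and 2iLIF minus 2i was -0.41 ± 0.05 (5.46e-05). Of 4 neural progenitor markers Pax6, Tubb3 and Nes were higher in PD03 minus DMSO, at 0.43, 0.86 and 0.64, and Sox1 did not pass. The mean of the 4 was likewise highest in PD03, at 8.43 to 8.49 over its arrays, against 7.99 to 8.03 in DMSO, 7.63 to 7.64 in CHIR, 7.83 to 7.94 in 2i and 7.74 to 7.83 in 2iLIF; their part in the result was not tested.

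**Figure D2:**
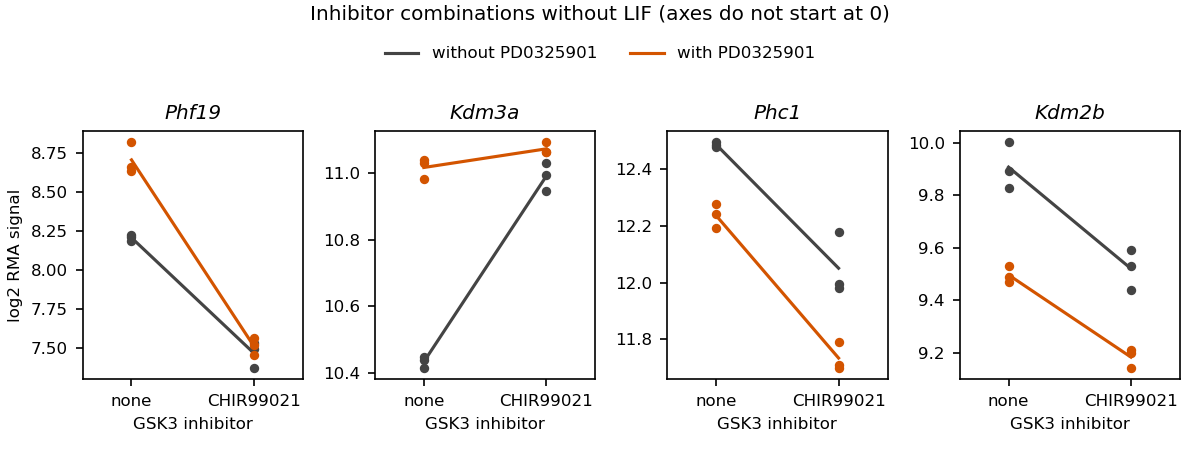
Log2 signal without LIF on each array (points) and group means (line ends) of 4 members, with no GSK3 inhibitor or with CHIR99021 on the horizontal axis and lines for cells without (grey) or with (orange) PD0325901. The lines of Phf19 converge at CHIR99021 and those of Kdm3a nearly do, whereas those of Phc1 and Kdm2b run close to parallel.

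The catalytic subunits of PRC1 were nearly level. Rnf2 (RING1B), the main H2A ubiquitin ligase of ES cells, had means between 11.49 and 11.61 and passed only in PD03 minus DMSO, at 0.12 ± 0.04 (adjusted p = 0.0307), a call lost with array centring and a fit on the 2 compared groups alone (adjusted p = 0.0691 to 0.0721) and on omission of any 1 of PD03 replicates 1 and 3 and DMSO replicates 2 and 3 (adjusted p = 0.0768 to 0.102). Its paralogue Ring1 passed only in 2i minus DMSO, at -0.12 ± 0.04 (0.0443), and this call was lost with the replicate block, array centring, an eBayes trend, array weights and a fit on the 2 compared groups alone (adjusted p = 0.0515 to 0.0818) and on omission of any 1 of 2i replicates 1 and 2 and DMSO replicates 2 and 3 (adjusted p = 0.0878 to 0.153).

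Each PRC1 complex holds 1 of 6 Pcgf proteins, which defines its type. In 2iLIF minus DMSO 3 of the 6 Pcgf genes were higher, 2 were lower and Bmi1 (Pcgf4) did not pass (-0.03 ± 0.07, adjusted p = 0.798). Pcgf5 was higher by 0.34 ± 0.08 (0.00229). Pcgf3, its closest relative, was lower at -0.27 ± 0.04 (4.73e-05) and was also lower in 2iLIF minus 2i at -0.18 ± 0.04 (0.00612). Pcgf2 (Mel18), which with Bmi1 serves canonical PRC1, followed CHIR99021. It was higher in CHIR minus DMSO at 0.22 ± 0.04 (0.00207) and in 2i minus PD03 at 0.22 ± 0.04 (0.00246). Its call in 2iLIF minus DMSO was lost on omission of any 1 of 2iLIF replicate 2 and DMSO replicate 1 (adjusted p = 0.063 to 0.0712). The Pcgf1 call there, also lost under some alternatives, is given below. Pcgf6, of the form that holds Mga and L3mbtl2, was lower in 2iLIF minus DMSO at -0.14 ± 0.04 (0.00633).

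Of the canonical subunits, which include the Cbx readers of methylated H3 lysine 27 and the Phc proteins that polymerise PRC1, Phc1 had the largest difference of any member in 2iLIF minus DMSO. Its levels were 12.49, 12.49 and 12.48 in the DMSO arrays, 12.24, 12.28 and 12.19 in PD03, 12.18, 11.98 and 11.99 in CHIR, 11.71, 11.70 and 11.79 in 2i and 11.33, 11.27 and 11.17 in 2iLIF. No array of any group overlapped with one of another group, in the order DMSO, PD03, CHIR, 2i and 2iLIF. Against DMSO, Phc1 was lower with PD0325901 alone at -0.25 ± 0.05 (adjusted p = 0.00335), with CHIR99021 alone at -0.44 ± 0.05 (2.04e-05) and with both at -0.75 ± 0.05 (2.69e-08). In 2iLIF minus 2i Phc1 was lower again, at -0.48 ± 0.05 (1.37e-05). Full medium was thus 2.34-fold below full withdrawal (-1.23 ± 0.05, 3.86e-11). The interaction was -0.07 ± 0.08 (0.815), and its 95% interval ran from -0.23 to 0.09.

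The paralogues of Phc1 differed in direction. Phc2 and Phc3 were higher in 2iLIF minus DMSO, at 0.18 ± 0.05 (adjusted p = 0.0133) and 0.16 ± 0.05 (0.0146). The Phc2 call was lost with a fit on the 2 compared groups alone (adjusted p = 0.0559) and on omission of any 1 of 2iLIF replicates 1 and 2 and DMSO replicate 3 (adjusted p = 0.0537 to 0.0712). The Phc3 call was lost with the mean of all probe sets (adjusted p = 0.105) and on omission of any 1 of 2iLIF replicate 1 and DMSO replicate 2 (adjusted p = 0.0636 to 0.0678). Cbx7, the main Cbx reader of ES cells, was lower in 2iLIF minus DMSO at -0.32 ± 0.04 (2.5e-05) and in 2i minus PD03 at -0.19 ± 0.04 (0.00563). Cbx2 was at -0.16 ± 0.05 (0.0121), a call lost with a fit on the 2 compared groups alone (adjusted p = 0.0783) and on omission of any 1 of 2iLIF replicate 3 and DMSO replicate 2 (adjusted p = 0.0595 to 0.0696). Cbx8 was at 0.09 ± 0.04 (0.115) and did not pass.

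The promoter of Phc1 is shown because it passed in CHIR minus DMSO, PD03 minus DMSO and 2iLIF minus 2i. That of Bcor is shown because its largest step between neighbouring group means was from 2i to 2iLIF. Those of Phf19 and Kdm3a are shown because they are the 2 members with an interaction of the inhibitors. Each sequence is the 250 bases before the RefSeq start of the gene (GRCm38.p6, most upstream start where the table holds several), written 5′ to 3′ on the gene's strand. Capitals mark matches on either strand to the core CTTTGA of TCF/LEF factors, which act with beta-catenin, to the core CGGAAG of ETS factors, which ERK activates, and to the STAT site TTCNNNGAA.
Phc1 chr6:122340228-122340477 (- strand): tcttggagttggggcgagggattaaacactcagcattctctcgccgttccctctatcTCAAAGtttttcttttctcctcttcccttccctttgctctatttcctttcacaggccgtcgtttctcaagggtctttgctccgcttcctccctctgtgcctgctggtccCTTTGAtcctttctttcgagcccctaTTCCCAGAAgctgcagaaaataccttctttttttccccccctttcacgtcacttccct
Bcor chrX:12160356-12160605 (- strand): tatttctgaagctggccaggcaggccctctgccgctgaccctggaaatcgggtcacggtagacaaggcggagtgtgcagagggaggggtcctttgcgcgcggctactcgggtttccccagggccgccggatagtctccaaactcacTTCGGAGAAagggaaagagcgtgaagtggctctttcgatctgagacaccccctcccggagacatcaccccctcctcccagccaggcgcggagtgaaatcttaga
Phf19 chr2:34913977-34914226 (- strand): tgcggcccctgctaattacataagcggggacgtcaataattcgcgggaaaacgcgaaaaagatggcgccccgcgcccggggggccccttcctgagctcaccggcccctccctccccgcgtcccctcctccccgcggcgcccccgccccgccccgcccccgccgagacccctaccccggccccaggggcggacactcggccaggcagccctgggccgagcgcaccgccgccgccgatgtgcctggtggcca
Kdm3a chr6:71632918-71633167 (- strand): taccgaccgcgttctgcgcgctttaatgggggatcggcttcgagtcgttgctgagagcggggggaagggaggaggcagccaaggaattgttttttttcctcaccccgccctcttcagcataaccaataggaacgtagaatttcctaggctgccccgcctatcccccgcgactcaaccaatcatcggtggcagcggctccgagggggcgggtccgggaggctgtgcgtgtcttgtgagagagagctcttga
The Phc1 window held 2 matches to the TCF/LEF core and 1 to the STAT site, the Bcor window held 1 match to the STAT site, and the windows of Phf19 and Kdm3a held none of the 3 motifs. These motif matches do not overlap one another, and a match is a description of letters, not of binding. Kdm2b and Eed also passed in CHIR minus DMSO, PD03 minus DMSO and 2iLIF minus 2i. Their windows are not printed, and neither held any of the 3 motifs.

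Promoter windows were found in RefSeq for 30 of the 35 members. The TCF/LEF core was in 2 of the 30 (6.7%), against 14.1% of all 27025 genes with a window of the same length. The ETS core was in 2 (6.7%), against 13.8%, and the STAT site in 3 (10.0%), against 7.1%. The median number of CpG dinucleotides was 20.5 in the members' windows and 6 over all windows, with a median GC content of 62.4% against 52.0%.

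Variant PRC1 complexes carry Rybp or Yaf2 in place of a Cbx protein. One of them, PRC1.1, is brought to CpG islands by the DNA-binding domain of Kdm2b, which is also a demethylase of H3 lysine 36, and further holds Bcor and Pcgf1. Kdm2b read 9.83, 9.89 and 10.00 in the DMSO arrays, 9.53, 9.49 and 9.47 in PD03, 9.59, 9.44 and 9.53 in CHIR, 9.14, 9.21 and 9.20 in 2i and 8.98, 8.87 and 8.93 in 2iLIF. The DMSO arrays were the highest, those of CHIR and PD03 overlapped in the middle, and those of 2i and then 2iLIF lay below without overlap. The differences were -0.39 ± 0.05 with CHIR99021 alone (adjusted p = 3.31e-05), -0.41 ± 0.05 with PD0325901 alone (1.97e-05) and -0.72 ± 0.05 with both (1.85e-08). In 2iLIF minus 2i Kdm2b was at -0.26 ± 0.05 (0.00197), and 2iLIF minus DMSO was -0.98 ± 0.05, or 1.97-fold lower (2.15e-10). The interaction was 0.07 ± 0.07 (0.764, interval -0.08 to 0.22).

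Bcor, the corepressor of PRC1.1 whose promoter is printed above, had its largest step between neighbouring group means from 2i to 2iLIF. That step holds LIF and the withdrawal step together. Its levels were 8.70, 8.64 and 8.81 in the DMSO arrays, 8.54, 8.46 and 8.50 in PD03, 8.53, 8.66 and 8.47 in CHIR, 8.26, 8.22 and 8.31 in 2i and 7.80, 7.75 and 7.76 in 2iLIF. The 2iLIF arrays were below all others, the 2i arrays came next without overlap, and those of PD03, CHIR and DMSO formed a higher range in which CHIR overlapped both. In 2iLIF minus 2i Bcor was at -0.50 ± 0.05 (adjusted p = 6.95e-06) and in 2i minus DMSO at -0.45 ± 0.05 (6.68e-06), which made -0.95 ± 0.05 in 2iLIF minus DMSO, or 1.93-fold lower (6.04e-10). With CHIR99021 alone the difference was -0.16 ± 0.05 (0.0389), a call lost with the replicate block, array centring and a fit on the 2 compared groups alone (adjusted p = 0.0583 to 0.134) and on omission of any 1 of CHIR replicates 1 and 3 and DMSO replicates 1 and 3 (adjusted p = 0.0712 to 0.185). With PD0325901 alone it was -0.21 ± 0.05 (0.00933), a call lost on omission of DMSO replicate 3 (adjusted p = 0.0537).

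Pcgf1, the third of the PRC1.1 genes named above, did not follow Kdm2b and Bcor. It read 9.76, 9.47 and 9.68 in the DMSO arrays, 9.46, 9.26 and 9.41 in PD03, 9.43, 9.84 and 9.80 in CHIR, 9.64, 9.81 and 9.69 in 2i and 9.87, 9.88 and 9.93 in 2iLIF. The 3 PD03 arrays included the lowest values and the 2iLIF arrays were the highest. In 2iLIF minus DMSO Pcgf1 was higher at 0.26 ± 0.10 (adjusted p = 0.0459), a call lost with the replicate block (adjusted p = 0.0598) and on omission of any 1 of 2iLIF replicates 1, 2 and 3 and DMSO replicates 2 and 3 (adjusted p = 0.0602 to 0.205). In 2i minus PD03 it was at 0.34 ± 0.10 (0.0204), a call lost on omission of any 1 of 2i replicate 2 and PD03 replicate 2 (adjusted p = 0.0873 to 0.0988).

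Rybp and Yaf2, homologues that bridge Rnf2 to the rest of variant PRC1, differed in sign in PD03 minus DMSO and in 2i minus PD03. The difference between these 2 genes was not tested. Yaf2 read 8.88, 8.69 and 8.63 in the DMSO arrays, 8.33, 8.16 and 8.38 in PD03, 8.86, 8.97 and 8.91 in CHIR, 8.63, 8.67 and 8.51 in 2i and 8.45, 8.58 and 8.65 in 2iLIF. The PD03 arrays were below those of DMSO, CHIR, 2i and 2iLIF. Yaf2 was lower in PD03 minus DMSO, at -0.45 ± 0.07 (adjusted p = 0.000306), while 2i minus PD03 was 0.32 ± 0.07 (0.00457). In 2i minus CHIR it was at -0.31 ± 0.07 (0.0123), a call lost on omission of any 1 of 2i replicate 3 and CHIR replicate 2 (adjusted p = 0.0577 to 0.0666). Rybp stood at 0.12 ± 0.05 in PD03 minus DMSO (0.12) and was lower in 2i minus PD03 at -0.14 ± 0.05 (0.0437). The Rybp call was lost with the mean of all probe sets and array centring (adjusted p = 0.0691 to 0.0726) and on omission of any 1 of 2i replicates 2 and 3 and PD03 replicates 1 and 2 (adjusted p = 0.0877 to 0.165). In 2iLIF minus DMSO Rybp passed as lower at -0.13, a call lost under 8 of 13 alternatives. Yaf2 did not pass there, with means of 8.56 in 2iLIF and 8.74 in DMSO.

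**Figure D3:**
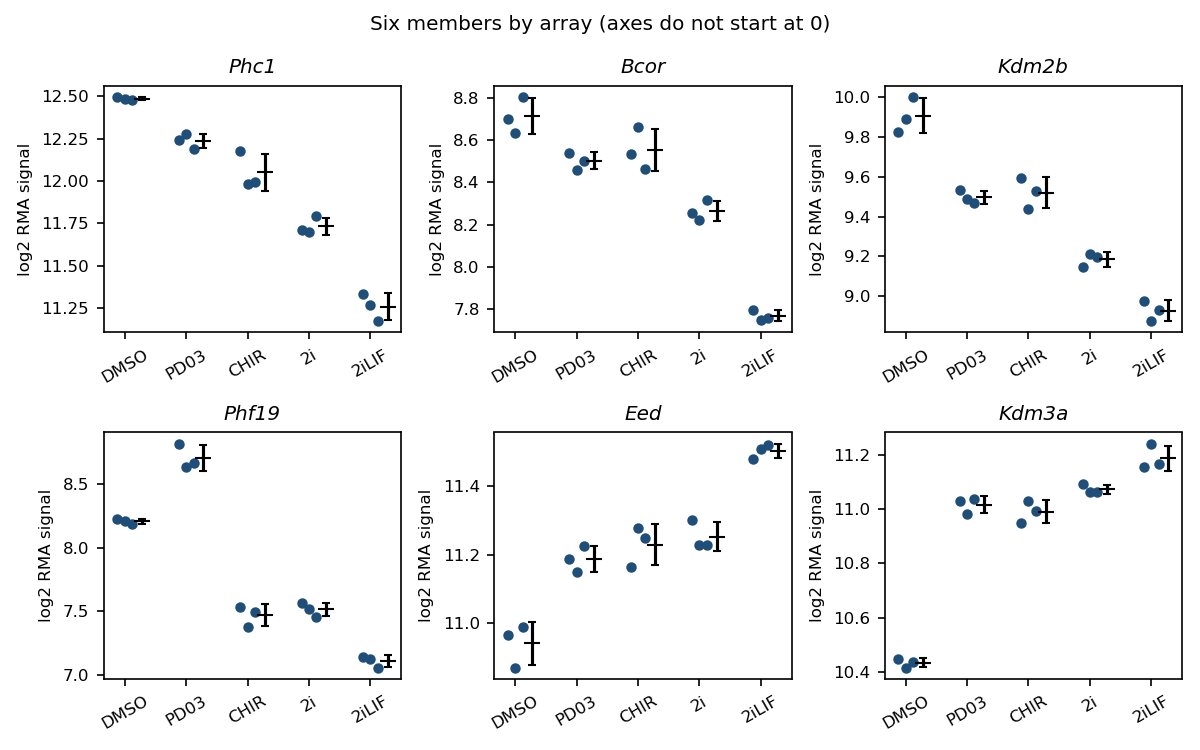
Log2 signal on each of the 3 arrays per group (points) with the mean and SD beside them, for the 6 members that passed with a difference of at least 0.5 in 1 or more pairwise comparisons. Phc1, Bcor and Kdm2b fall from DMSO to 2iLIF, Eed and Kdm3a rise, and Phf19 is highest in PD03 and lowest in 2iLIF.

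Of the 6 demethylases outside the Polycomb complexes, Kdm3a was higher and 3 were lower in 2iLIF minus DMSO, and Kdm5b and Kdm6b did not pass. Kdm3a, which removes mono- and dimethylation of H3 lysine 9, read 10.45, 10.42 and 10.44 in the DMSO arrays, 11.03, 10.98 and 11.04 in PD03, 10.95, 11.03 and 10.99 in CHIR, 11.09, 11.06 and 11.06 in 2i and 11.15, 11.24 and 11.17 in 2iLIF. The 3 DMSO arrays stood apart below all the others, and the other 12 arrays lay between 10.95 and 11.24. Against DMSO, Kdm3a was higher where CHIR99021 alone was kept, by 0.56 ± 0.04 (1.47-fold, adjusted p = 1.73e-08). With PD0325901 alone kept it was higher by 0.58 ± 0.04 (1.5-fold, 1.28e-08), and with both kept by 0.64 ± 0.04 (1.56-fold, 1.88e-09). Beside either inhibitor, keeping the other made little difference: 2i minus CHIR was 0.08 ± 0.04 (interval 0.01 to 0.16) and 2i minus PD03 0.06 ± 0.04 (interval -0.02 to 0.13), and neither passed. The interaction was -0.50 ± 0.05 (4.72e-05). In 2iLIF minus 2i Kdm3a was at 0.11 ± 0.04 (0.0483), a call lost with the replicate block, array centring and a fit on the 2 compared groups alone (adjusted p = 0.0747 to 0.132) and on omission of any 1 of 2iLIF replicates 2 and 3 and 2i replicates 1, 2 and 3 (adjusted p = 0.0694 to 0.213).

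Kdm4a and Kdm4c, which act on trimethylated H3 lysines 9 and 36, were lower in 2iLIF minus DMSO, at -0.23 ± 0.04 (adjusted p = 0.000109) and -0.41 ± 0.04 (1.58e-06). Kdm4c was also lower with CHIR99021 alone at -0.18 ± 0.04 (0.00721) and in 2i minus PD03 at -0.21 ± 0.04 (0.00331). Kdm4a was lower in 2iLIF minus 2i at -0.15 ± 0.04 (0.0119). Kdm1a (LSD1), an eraser of H3 lysine 4 mono- and dimethylation, had a smaller difference in 2iLIF minus DMSO, -0.14 ± 0.03 (0.00207).

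Kdm5b, an eraser of trimethylated H3 lysine 4, and Kdm6b (JMJD3), an eraser of H3 lysine 27 methylation, had their highest group means in PD03, at 11.83 ± 0.02 and 9.50 ± 0.04 (SD, n = 3). Kdm5b was higher in PD03 minus DMSO at 0.22 ± 0.03 (adjusted p = 0.000121) and lower in 2i minus PD03 at -0.18 ± 0.03 (0.000744). Kdm6b was at 0.14 ± 0.05 in PD03 minus DMSO (0.0597) and lower in 2i minus PD03 at -0.30 ± 0.05 (0.000294). In 2iLIF minus DMSO Kdm5b and Kdm6b stood at -0.05 ± 0.03 and -0.08 ± 0.05.

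**Figure D4:**
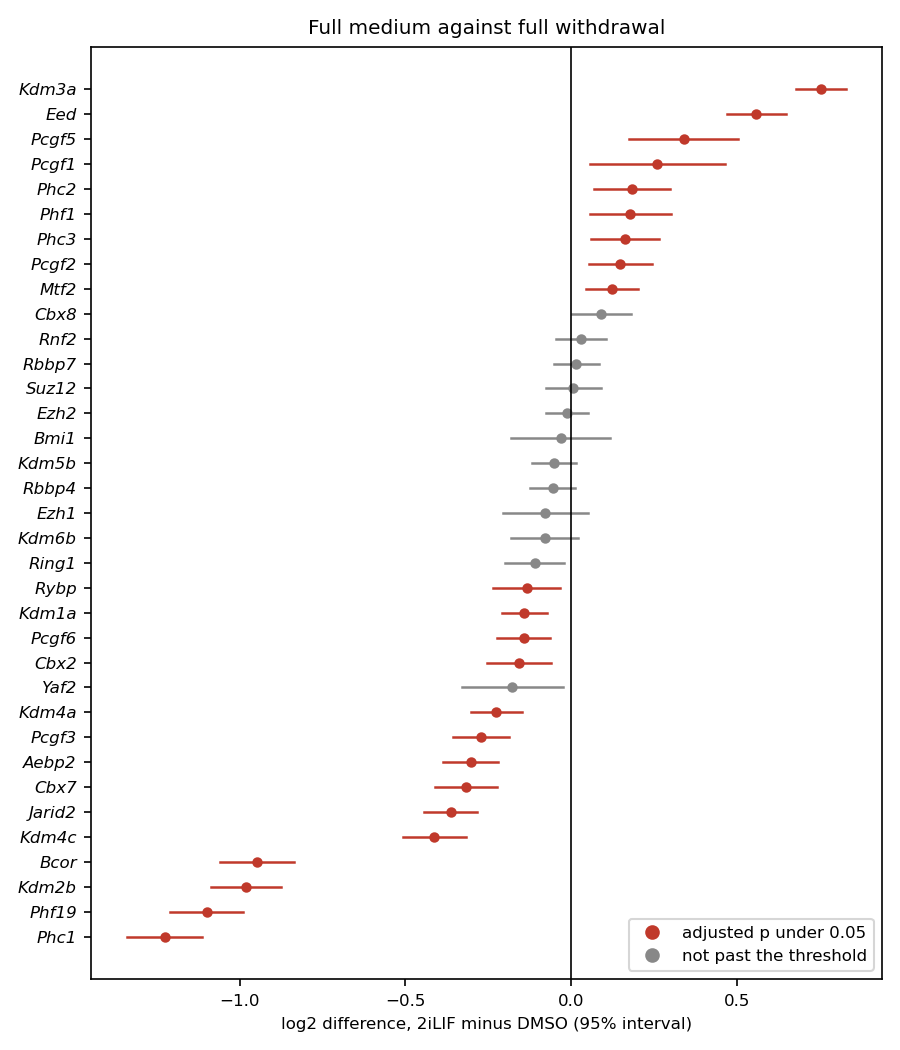
Log2 difference between 2iLIF and DMSO for each of the 35 members (points) with 95% intervals (lines) from the limma fit, 3 arrays per group, in red where the adjusted p was under 0.05. Phc1, Phf19, Kdm2b and Bcor stand apart at the bottom between -1.23 and -0.95, and Kdm3a and Eed at the top at 0.75 and 0.56.

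The group means of 6 members fell stepwise, being highest in DMSO, lower in both single-inhibitor groups, lower again in 2i and lowest in 2iLIF: Phc1, Bcor, Kdm2b, Jarid2, Kdm4a and Kdm4c. The group means of Eed, Phc2 and Kdm3a rose stepwise in the same sense. Of all genes 7.15% fell and 6.92% rose in this order, against 17.1% and 8.57% of the members. No share for this order was taken over genes at the members' levels. Of the 4 steps between groups neighbouring in mean, arrays overlapped in 3 for Kdm4a and Phc2, in 2 for Bcor and Eed, in 1 for Kdm2b, Kdm3a, Jarid2 and Kdm4c, and in 0 for Phc1.

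Other Polycomb genes were read from a separate list, of which 25 were measured. In 2iLIF minus DMSO 6 were higher and 9 lower (60%, against 34.7% of all genes and 53.5% of those at the members' levels). Fbrsl1, a relative of the PRC1 cofactor Auts2, was higher at 0.60 ± 0.05 (adjusted p = 5.37e-08), and Auts2 itself was lower at -0.54 ± 0.05 (3.15e-07). Asxl1, the partner of the H2A deubiquitinase Bap1, was lower at -0.51 ± 0.04 (1.46e-07), and Epop, a PRC2.1 subunit, was higher at 0.40 ± 0.07 (0.000124). In CHIR minus DMSO 6 were higher and 3 lower (36%, against 20.8% of all genes and 32.4% of those at the members' levels), led by Sfmbt2 at 0.44 ± 0.06 (2.72e-05). In PD03 minus DMSO 5 were higher and none lower (20%, against 16.8% of all genes and 26.4% of those at the members' levels), led by Fbrsl1 at 0.36 ± 0.05 (6.58e-05).

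Of 15 other histone demethylases, 2 were higher and 8 lower in 2iLIF minus DMSO (66.7%, against 34.7% of all genes and 53.5% of those at the members' levels). Kdm7a, an eraser of H3 lysine 9 and 27 dimethylation, fell most, at -0.94 ± 0.05 (adjusted p = 2.82e-10), and it passed as lower in each of the other 6 pairwise comparisons, as Kdm2b did. Kdm3b, the paralogue of Kdm3a, was higher at 0.47 ± 0.04 (3.5e-07). Unlike Kdm3a, it was at 0.21 ± 0.04 in 2i minus CHIR (0.00723) and 0.20 ± 0.04 in 2i minus PD03 (0.00463), both past the threshold; the difference between the paralogues was not tested. Jmjd1c, of the same family, was lower at -0.43 ± 0.04 (2.17e-07). Kdm6a (UTX), another eraser of H3 lysine 27 methylation, was lower at -0.27 ± 0.04 (8.23e-05).

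Developmental genes that Polycomb complexes are known to repress in ES cells changed in few cases. Of 29 measured, 1 was higher (Gata4) and 2 were lower (Pax6 and Cdkn2b) in 2iLIF minus DMSO, and the median difference was 0.022. The 10.3% past the threshold compares with 34.7% of all genes. Most of the 29 lie below the level floor used for the members, and no share was taken over genes at such low levels. The mean over the 29 genes lay between 6.46 and 6.60 on every array, below the array medians of 6.98 to 7.06, and RMA compresses differences between low signals. Pax6, a neural transcription factor, read 7.80, 7.81 and 7.67 in the DMSO arrays, 8.19, 8.22 and 8.16 in PD03, 7.05, 7.02 and 7.03 in CHIR, 6.96, 7.12 and 7.12 in 2i and 6.54, 6.55 and 6.52 in 2iLIF. As for Phf19, the PD03 arrays were highest and the 2iLIF arrays lowest. Its differences were 0.43 ± 0.05 in PD03 minus DMSO (adjusted p = 6.68e-06), -0.72 ± 0.05 in CHIR minus DMSO (1.98e-08) and -1.22 ± 0.05 in 2iLIF minus DMSO (1.01e-11).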

How the data were processed

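Total RNA of 15 mouse ES cell samples was hybridised to single-colour Affymetrix whole-transcript arrays. The authors deposited log2 values per probe set made with RMA, per the submitters' processing notes; its version and the genome build are not given in the sources used here. RMA subtracts background, equalises the distributions of the arrays by quantiles and summarises probes, which compresses low signals and hides a change shared by most genes. The table held 34760 probe sets with array medians from 6.98 to 7.06, and all 15 columns matched a sample (0 unused). The platform annotation gave 21640 probe sets exactly 1 symbol, which left 19937 genes. No filter on level was applied.

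Groups came from the labels. With limma 3.58.1 in R 4.3.3, lmFit and eBayes were run on the 15 arrays as a model of 5 groups, with 7 pairwise comparisons and the interaction (2i minus PD03) minus (CHIR minus DMSO). All p-values are two-sided and adjusted over all genes by Benjamini-Hochberg. The fit had 10 residual and 5.09 prior degrees of freedom, and the number of arrays limits the precision: the median SE of a pairwise difference was 0.0509. Intervals are per gene and not adjusted. Because the labels name no separate cultures, p-values reflect the spread among these arrays alone, which may be technical. Members and gene lists were chosen with earlier results of these data known. Arrays are printed for members past the threshold by at least 0.5 in a pairwise comparison, and for Rbbp7, Yaf2, Pcgf1 and Pax6, which were chosen after their values were seen; from the other Polycomb, other demethylase and developmental lists, up to 4 genes per comparison with the largest difference past the threshold were eligible, and Kdm6a was chosen after its value was seen. Level cuts for background shares were also set after seeing the data. The procedure was tested on simulated data. Same-numbered arrays did not pair: their deviations from group means correlated at -0.364 to 0.341, over 0.1 in 10 of 30 pairs. Alternatives were a replicate block, a low-value filter, the mean of all probe sets, array centring, an eBayes trend, array weights, fits on the compared groups alone, a minimum difference of 0.2 and leaving out each replicate.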

Additional observations from a re-analysis of the deposited data

Results flagged for a closer look

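Phf19, Kdm3a and Pax6 differed in their response to one inhibitor with the presence of the other, by the interaction term of the limma fit. Phf19 had an interaction of -0.45 (adjusted p = 0.00317): CHIR99021 gave -0.74 ± 0.05 without PD0325901 and -1.19 ± 0.05 with it. Kdm3a had an interaction of -0.50 (4.72e-05): CHIR99021 gave 0.56 ± 0.04 without PD0325901 and 0.06 ± 0.04 with it. Pax6, of the developmental list, had an interaction of -0.40 (0.00377), with -0.72 ± 0.05 and -1.12 ± 0.05. All 3 kept their arrays apart between PD03 and DMSO and between PD03 and 2i. Groups of 3 arrays are too small for the test of single outlying arrays, which was not run.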

How the results depend on the processing

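Of 93 member calls, 91 pairwise and 2 of the interaction, 65 held under every alternative that tests single genes, 28 were lost under at least 1, and 0 changed sign. Calls lost numbered 14 in fits on the compared groups alone, 10 with array centring, 6 with the mean of all probe sets, 5 with the replicate block, 2 with an eBayes trend, 2 with array weights and 0 with the low-value filter. With the eBayes trend 8 members passed in 2i minus CHIR, against 5, and 4 in the interaction, against 2; the cause was not tested. With a minimum difference of 0.2, which drops small calls by construction, 10 passed in 2i minus PD03 (18 without it), 5 in 2iLIF minus 2i (10) and 14 in 2iLIF minus DMSO (23). Leaving out 1 replicate gave 9 to 13 members past the threshold in CHIR minus DMSO, 8 to 11 in PD03 minus DMSO, 10 to 13 in 2i minus DMSO, 4 to 6 in 2i minus CHIR, 14 to 17 in 2i minus PD03, 7 to 10 in 2iLIF minus 2i, 18 to 22 in 2iLIF minus DMSO and 2 to 3 in the interaction. With the replicate number as a block the counts were 10, 11, 13, 5, 18, 9, 22 and 2 in the same order, and 6 of 15 arrays correlated best with their own number. Low signals limit what can be seen of the developmental genes below the array medians.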

Other observations

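Among Polycomb genes outside the 35, in 2iLIF minus 2i 0 of 25 were higher, 5 were lower and 20 did not pass, with a median difference of -0.033. The 20% past the threshold compares with 12.2% of all genes (4.56% higher, 7.66% lower) and 19.7% of genes at the levels of the 35. Auts2 was at -0.48 ± 0.05 (adjusted p = 7.45e-06), Scmh1, a partner of canonical PRC1, at -0.32 ± 0.05 (0.000226), Asxl1 at -0.30 ± 0.04 (0.000194) and Scml2 at -0.20 ± 0.05 (0.0157). Of the 15 other demethylases 0 were higher and 5 lower in this comparison (33.3%, against the same 12.2% and 19.7%), among them Kdm7a at -0.38 ± 0.05 (5.46e-05) and Jmjd1c at -0.17 ± 0.04 (0.00825). By limma without adjustment, 9 of the 25 and 7 of the 15 had a p under 0.05.

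In 2i minus PD03 4 of the 25 other Polycomb genes were higher and 3 lower (28%, against 19.5% of all genes and 31.5% of those at the levels of the 35). Sfmbt2 was at 0.33 ± 0.06 (0.000433) and Epop at 0.28 ± 0.07 (0.00568), while Asxl1 was at -0.24 ± 0.04 (0.00101) and Auts2 at -0.21 ± 0.05 (0.0082). Kdm2a, the paralogue of Kdm2b, was at -0.19 ± 0.04 (0.0012), and Kdm6a was at -0.26 ± 0.04 (0.00037).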
